A study of Mus musculus with 2 samples.

Results

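The genes for building sterols and fatty acids were followed in mouse lung immune cells. They were 31 genes out of 31053 in each count table, chosen by symbol as a pathway list with earlier results of these data known. The list holds 7 genes of the mevalonate steps, 11 of the squalene and sterol steps, 4 of sterol sensing and carriage, 3 of fatty acid synthesis and 6 of desaturation and elongation. Each of the 31 symbols was found in both tables. White blood cells, sorted by FACS for the surface protein CD45, came from perfused lungs digested with collagenase V and DNase at 37°C. They were sequenced as 1 single-cell RNA library per group with the 10x Genomics 3′ kit. The exposed library came from mice that breathed diesel exhaust particles (DEP) at 500 µg/m³ for 1 hour a day, 5 days a week, over 2 weeks in whole-body inhalation, and the control library from untreated mice. Both libraries carry the genotype label Ccr2-/- (KO), with CD45.1+ for the control and CD45.3+ for the exposed library, while the series' design also names wild-type C57BL/6J mice. Age and whether animals were pooled are not stated, so genotype, CD45 label, animals, run and exposure cannot be told apart between the libraries.

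The pathway starts from acetyl-CoA. The mevalonate steps turn it into isoprenoid units, squalene synthase and the enzymes after it turn those into cholesterol, and a separate branch builds fatty acids and then desaturates and lengthens them. SREBP proteins, encoded by Srebf1 and Srebf2, are membrane-bound transcription factors that are released when sterol in the endoplasmic reticulum runs low and then switch on most enzymes of the list, while INSIG proteins hold them back. In the lung, alveolar macrophages take up and clear the lipids of surfactant.

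For the control, 10312 barcodes carried 62047730 UMIs, each of which marks 1 captured transcript, and for the exposed library 10000 barcodes carried 67030914. The filters left 8940 control cells (median 3674.5 UMIs) and 8690 exposed cells (median 4151.5 UMIs), which had 18 barcodes in common. Clusters made without the 31 genes were named from marker genes, and 12 classes reached 50 cells on both sides. A class name means cells like the named type, and proliferating cells are a mix of types that share cell cycle genes. Levels are CPM, the UMIs of a gene per 1000000 UMIs summed over the class, not divided by length because each transcript is tagged once at its 3′ end, and brackets hold 95% intervals that cover counting error only. With 1 library per group nothing can be tested, and a gene is called higher or lower where its CPM differed at least 1.5-fold with a counting interval that excludes 1, among genes with at least 20 UMIs in the class over both libraries. In all, 301 pairs of gene and class could be counted, of which 23 (7.64%) were called higher and 18 (5.98%) lower in the exposed library, where 2.32% and 4.80% of the 108589 pairs over all genes were. The lower share is near that of all genes. Dendritic cells held 16 of the 23 higher calls, and the desaturase Scd1 held 8 of the 18 lower calls. Another 7 members were called in no class (Acat2, Tm7sf2, Nsdhl, Hsd17b7, Ebp, Dhcr7 and Fads1), and Fads2, with 11 control and 15 exposed UMIs over the 12 classes, reached the count in no class.

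**Figure D1:**
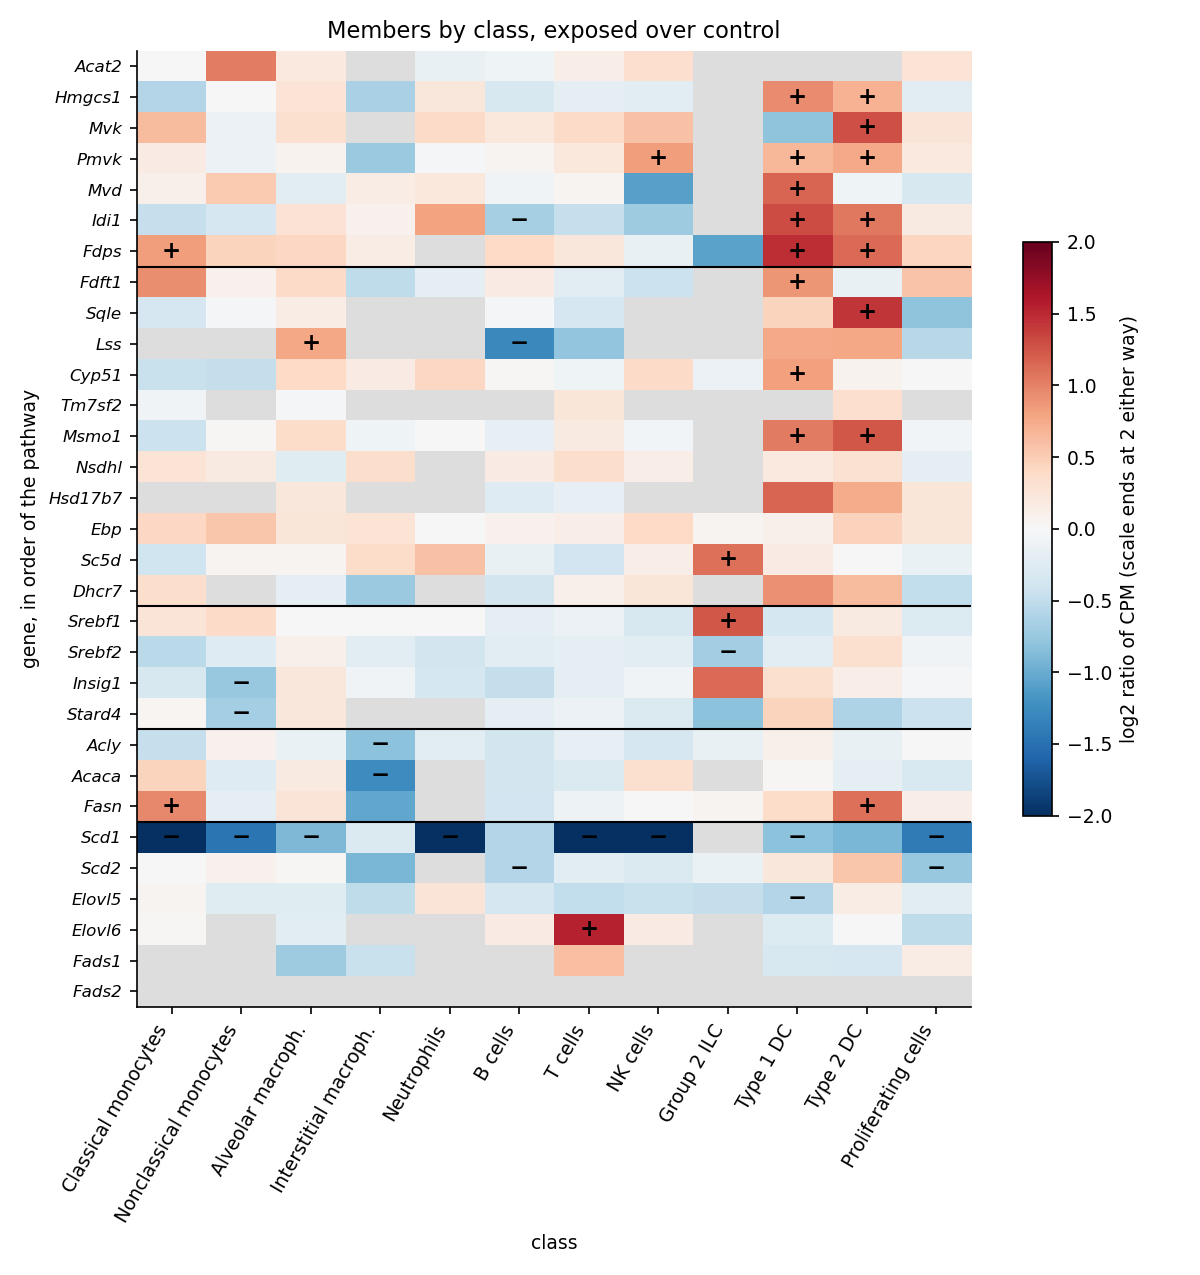
Log2 ratio of CPM, exposed over control, for the 31 genes (rows, in order of the pathway, lines between roles) in the 12 classes (columns); + and − mark calls and grey marks genes under 20 UMIs. The + signs gather in the columns of the dendritic classes (8 in each), and the row of Scd1 holds 8 − signs.

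The sterol enzymes, the 18 genes from Acat2 to Dhcr7, had UMIs in every class as a sum, although Lss and Tm7sf2 had none in control group 2 innate lymphoid cells and Lss none in exposed neutrophils. Their summed level was highest in macrophages of the alveoli or in dendritic cells and lowest in neutrophils. In the control library alveolar macrophages led with 487 CPM [474 to 501], followed by proliferating cells with 418 [394 to 442] and type 2 dendritic cells with 414 [385 to 444], whose intervals overlapped. Neutrophils were lowest with 148 CPM [139 to 157]. In the exposed library type 2 dendritic cells led with 671 CPM [634 to 711], above alveolar macrophages with 554 [540 to 569]. That lead belongs to a mixed cluster. Without its cells carrying at least 2 plasmacytoid markers the level was 580 CPM [540 to 622], which overlaps alveolar macrophages, and from markers alone it was 376 CPM. Neutrophils were again lowest with 172 [163 to 181]. Mature dendritic cells, which migrate to lymph nodes, stood higher still, but were too few to enter the comparison. Their 25 control cells had 626 CPM [545 to 716] and their 33 exposed cells 948 CPM [860 to 1043].

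**Figure D2:**
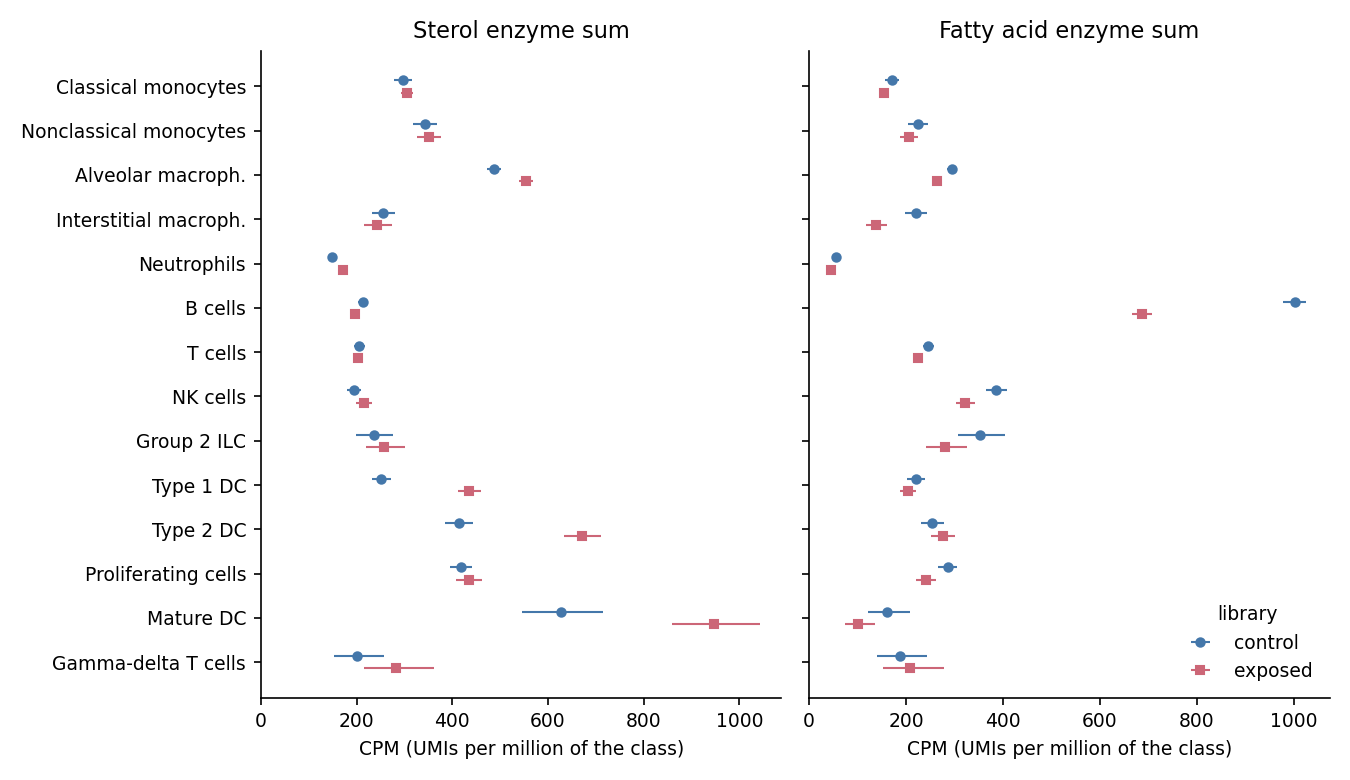
Summed CPM of the 18 sterol enzymes (left) and of the 9 fatty acid enzymes (right) by class in the control and exposed libraries, with 95% counting intervals as bars. Type 1, type 2 and mature dendritic cells show the widest gaps between the libraries on the left, and B cells stand apart on the right.

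Among the 12 classes compared, which leave out mature dendritic cells, single members had different leading classes. For 17 of the 31 the leading class was the same in both libraries. Alveolar macrophages led for 5: Hmgcs1, which makes HMG-CoA, Mvd, the decarboxylase that ends the mevalonate steps, Dhcr7, the last reductase before cholesterol, the regulator Srebf1, and Acly, which makes cytosolic acetyl-CoA. Mvd was the most restricted of these, with 68.9 CPM in control and 59.2 CPM in exposed alveolar macrophages against 23.8 and 22.0 CPM in the next class. Type 2 dendritic cells led for 4: Idi1 (the isomerase of isoprenoid units), Fdps (farnesyl diphosphate synthase), Cyp51 (lanosterol demethylase) and Fads2 (a desaturase of polyunsaturated fatty acids). Their cluster also held plasmacytoid markers, and Fads2 had only 11 control and 15 exposed UMIs over the 12 classes. Mature dendritic cells had higher levels of Idi1 and Fdps in both libraries, for Fdps by little in the control. NK cells led for Fasn, the fatty acid synthase, with 41.9 and 42.4 CPM, and for the desaturase Scd2 with 107 and 87.4 CPM. B cells led for Scd1, group 2 innate lymphoid cells for the elongase Elovl5 (187 and 134 CPM), interstitial macrophages for the desaturase Fads1 (50.5 and 37.0 CPM), and type 1 dendritic cells for the regulator Srebf2 (176 and 153 CPM). T cells led for Acat2, a thiolase that joins acetyl-CoA units, and proliferating cells for Fdft1, squalene synthase. In 5 of the 17 the interval of the leading class lay apart from that of the next class in both libraries: Mvd, Scd1, Scd2, Elovl5 and Fads1.

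The other 14 members changed leader between the libraries. Mvk, the mevalonate kinase, passed from proliferating cells (11.5 CPM) to T cells (14.2 CPM), and Pmvk, the next kinase, from neutrophils (49.2 CPM) to type 2 dendritic cells (73.5 CPM). Sqle, squalene epoxidase, Lss, lanosterol synthase, and Nsdhl, which removes a carbon from the sterol, were led by proliferating cells in the control (14.7, 5.59 and 15.7 CPM). In the exposed library type 2 dendritic cells led for Sqle and Lss (29.4 and 8.48 CPM) and type 1 dendritic cells for Nsdhl (14.4 CPM). Msmo1, the sterol methyl oxidase, passed from nonclassical monocytes (45.8 CPM) to type 2 dendritic cells (55.4 CPM). Insig1, which holds SREBP back, passed between the same classes (73.0 and 58.2 CPM). Ebp, a sterol isomerase, was led by proliferating cells (74.1 CPM) and then by classical monocytes (96.2 CPM), and Sc5d, a sterol desaturase, by neutrophils (38.9 CPM) and then by group 2 innate lymphoid cells (60.1 CPM). Group 2 innate lymphoid cells led in the control for the reductase Hsd17b7 (11.3 CPM), the sterol carrier Stard4 (45.2 CPM) and Acaca, the acetyl-CoA carboxylase (17.8 CPM). Alveolar macrophages led for Hsd17b7 in the exposed library (12.4 CPM) and NK cells for Stard4 and Acaca (33.6 and 21.5 CPM). Tm7sf2, a sterol reductase, was low everywhere and passed from type 2 dendritic cells (4.86 CPM) to group 2 innate lymphoid cells (6.32 CPM). The elongase Elovl6 passed from NK cells (28.8 CPM) to T cells (42.9 CPM). Apart from Pmvk and Sqle in the exposed library, the leading class and the next one had overlapping intervals in each of these 14.

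Type 1 dendritic cells, which cross-present antigen to CD8 T cells, carried a higher level of the sterol enzymes in the exposed library. The 183 control cells had a sum of 252 CPM [233 to 271] and the 185 exposed cells one of 435 CPM [412 to 460], a log2 ratio of 0.79 [0.66 to 0.93]. The sum no longer reached 1.5-fold with a stricter cell filter (log2 ratio 0.51) or with finer clusters (0.44). The mevalonate steps went from 112 CPM [100 to 126] to 233 CPM [216 to 251], a log2 ratio of 1.05 [0.86 to 1.25]. The squalene and sterol steps went from 139 to 203 CPM, a log2 ratio of 0.54 [0.35 to 0.73]. Of the 28 members counted, 8 were called higher and 2 lower, where 3.06% of the 8822 genes of the class were called higher and 3.80% lower. The median log2 ratio of the members was 0.34, against 0.0059 for all genes.

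The 8 higher members of type 1 dendritic cells were all sterol enzymes, out of 16 counted. Fdps, which makes the farnesyl unit for both sterols and prenylated proteins, had 91 control and 264 exposed UMIs, or 32.7 CPM [26.3 to 40.1] and 90.8 CPM [80.2 to 102], a 2.78-fold level [2.18 to 3.57]. By the bound of its interval nearest to no change it ranked 7 among all 8822 genes. Idi1 stood at 11.8 and 29.6 CPM, 2.50-fold [1.65 to 3.85]. Msmo1 stood at 15.8 and 32.7 CPM (2.07-fold) and Hmgcs1 at 27.3 and 52.6 CPM (1.93-fold). Cyp51 stood at 24.8 and 43.7 CPM, Pmvk at 28.0 and 44.4 CPM and Fdft1 at 6.82 and 12.7 CPM. Mvd rested on few UMIs, 10 control and 24 exposed ones. All but 1 of the 16 lay above 0, the exception being Mvk with 7.90 and 4.47 CPM. The 2 members called lower were Scd1 (20.1 and 11.3 CPM) and Elovl5, which lengthens polyunsaturated fatty acids (54.2 and 36.1 CPM). None of the regulators was called. Srebf2, the member with the most UMIs in the class, was at 176 and 153 CPM, Srebf1 at 11.8 and 9.29 CPM and Insig1 at 35.9 and 45.1 CPM. The 4 sensing and carriage genes summed to 242 and 232 CPM. Acly (59.6 and 64.0 CPM) and Ebp (42.0 and 45.1 CPM) lay close to each other in the libraries.

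**Figure D3:**
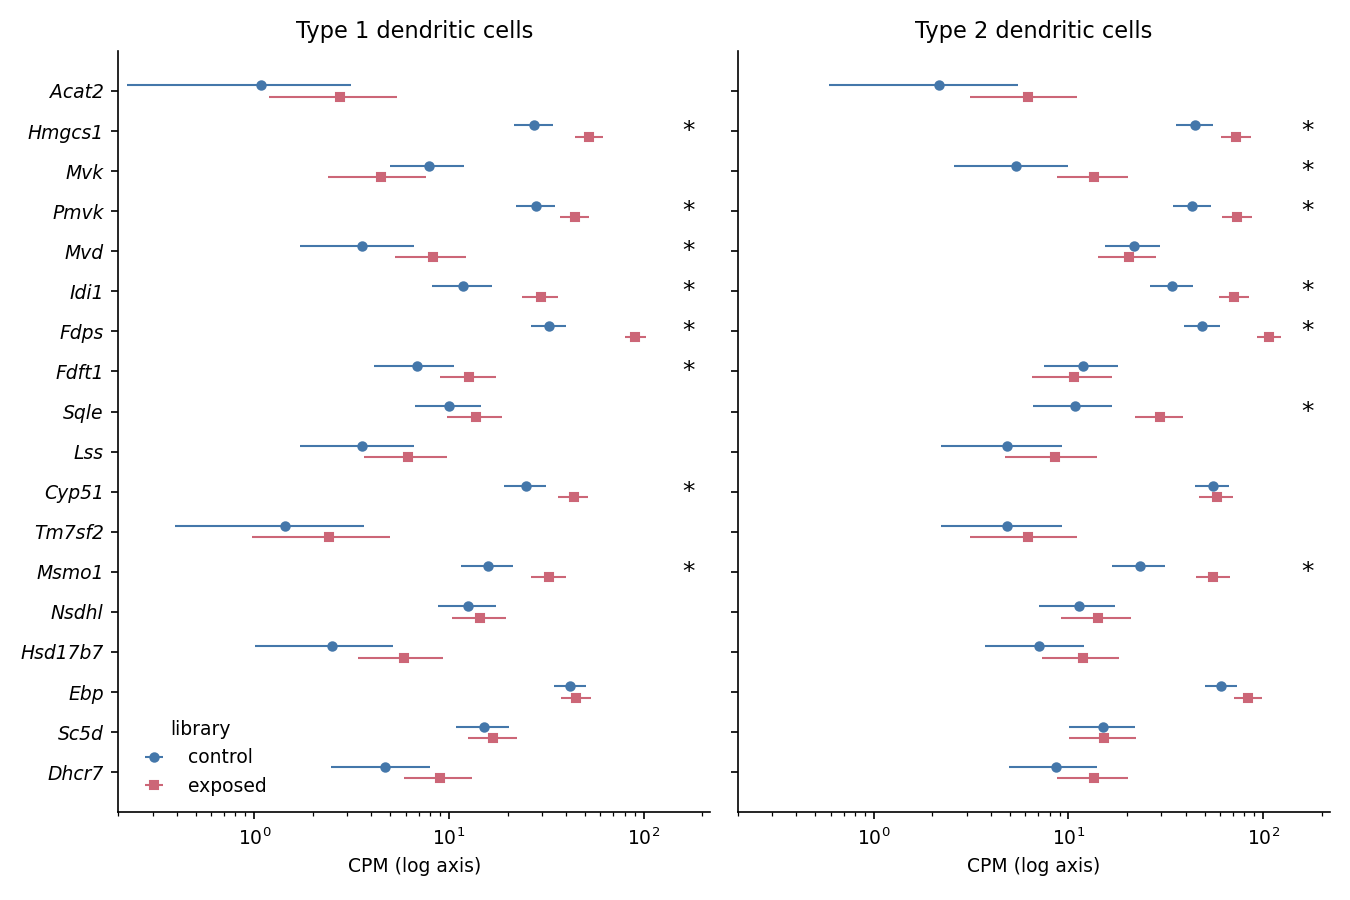
CPM of the 18 sterol enzymes (rows, in pathway order, log axis) in type 1 and type 2 dendritic cells of the control and exposed libraries, with 95% counting intervals as bars; a star marks a gene called higher. Fdps and Idi1 are apart in both panels, while Sc5d lies close together in both and Ebp in type 1 cells.

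Type 2 dendritic cells, which present antigen to CD4 T cells, also had a higher sum, 414 CPM [385 to 444] in 139 control and 671 CPM [634 to 711] in 131 exposed cells, a log2 ratio of 0.70 [0.57 to 0.83]. The mevalonate steps were at 200 and 365 CPM (log2 ratio 0.87 [0.68 to 1.06]), and the squalene and sterol steps at 214 and 306 CPM (0.52 [0.33 to 0.71]). Of 29 members counted 8 were called higher and 0 lower, where 2.29% of the 8288 genes were called higher and 6.13% lower. The median log2 ratio was 0.32, against -0.063 for all genes. Fdps was at 48.6 and 107 CPM, 2.21-fold [1.71 to 2.87], and Idi1 at 34.0 and 71.2 CPM, 2.09-fold [1.54 to 2.88]. Sqle, the enzyme that puts oxygen on squalene, was at 10.8 and 29.4 CPM, 2.72-fold [1.597 to 4.81]. Msmo1 (23.2 and 55.4 CPM), Pmvk (43.2 and 73.5 CPM), Hmgcs1 (44.8 and 72.9 CPM) and Mvk (5.40 and 13.6 CPM) completed the sterol enzymes, 7 of 17 counted. Fasn was the 1 member called from the fatty acid branch, with 17.3 and 37.3 CPM. Cyp51 (55.1 and 57.6 CPM) and Mvd (21.6 and 20.3 CPM) were called in type 1 cells but not here, a difference between classes that was not tested. Srebf2 was at 105 and 132 CPM, Acly at 83.2 and 74.6 CPM and Ebp at 61.0 and 83.6 CPM, none called.

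The type 2 cluster was mixed: among its 10 leading genes stood 3 markers of type 2 dendritic cells (Cd209d, Cd209a and Mgl2) and 3 of plasmacytoid dendritic cells (Klk1, Siglech and Cox6a2). The 7 plasmacytoid markers summed to 1311 CPM in the control and 1116 CPM in the exposed cells, with 0 of 7 at 0 in either library. Cells with UMIs of at least 2 plasmacytoid markers (43 control, 35 exposed) had sterol sums of 444 and 971 CPM, and the remaining 96 and 96 cells 400 and 580 CPM, a log2 ratio of 0.53 [0.37 to 0.70]. The difference depended on which cells were taken as the class. When cells were assigned from markers alone, without clusters, 86 control and 76 exposed cells remained, their sums were 361 and 376 CPM, and 7 of the 8 higher calls were lost, with Sqle kept. In type 1 cells the same assignment gave 173 and 184 cells with 254 and 425 CPM, and 7 of the 8 higher calls held, with Pmvk lost, while both lower calls (Scd1 and Elovl5) were lost. In type 1 cells the plasmacytoid markers summed to 115 and 106 CPM with 2 of 7 at 0 in each library, and markers of mature dendritic cells to 866 and 757 CPM with 2 and 1 of 9 at 0. Markers of proliferating cells were higher in the exposed library, at 113 and 182 CPM with 0 of 11 at 0, and so were those of neutrophils, at 144 and 408 CPM with 1 and 0 of 9 at 0. Type 1 cells with UMIs of fewer than 3 proliferating markers had sterol sums of 250 and 444 CPM. Those with fewer than 3 neutrophil markers had 254 and 408 CPM. Type 1 cells with UMIs of fewer than 2 mature markers had sterol sums of 267 and 522 CPM, and those with at least 2 had 233 and 295 CPM.

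Cells contributed unequally to both sums. In type 1 dendritic cells the median cell had a sterol sum of 184 CPM (control) or 248 CPM (exposed), and the 90th percentile was 589 and 839 CPM. The 10 highest cells of each library held 20.4% of the control and 34.0% of the exposed sterol UMIs. Type 2 cells showed the same order, with medians of 305 and 378 CPM, 90th percentiles of 856 and 1576 CPM, and 29.6% and 43.6% of the UMIs in 10 cells. A single exposed type 1 cell had 105 sterol UMIs. Without the highest cell of each library the log2 ratios were 0.71 in type 1 and 0.71 in type 2 cells. With cells thinned to 1000 UMIs (between 1 and 3 cells of each group were too shallow), the share of type 1 cells with a sterol enzyme UMI was 21.4% [15.7 to 28.1] in control and 30.2% [23.6 to 37.5] in exposed lungs, and that of type 2 cells 31.2% [23.6 to 39.6] and 43.4% [34.7 to 52.4]. Those intervals (Clopper-Pearson) overlap within each class. Unthinned shares were 89.1% and 89.7% in type 1 and 91.4% and 96.2% in type 2 cells, and neutrophils, the lowest class by CPM, showed 12.3% and 16.4% thinned.

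Mature dendritic cells gave levels only. Their control level of Fdps was 49.5 CPM [28.8 to 79.3] and their exposed level 153 CPM [119 to 194]. Idi1 was at 166 and 301 CPM, the highest level of that gene in any class, and Srebf2 at 102 and 191 CPM. Hmgcs1 went the other way, with 84.5 and 67.4 CPM on 29 and 30 UMIs.

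Fdps, Hmgcs1, Idi1, Msmo1 and Pmvk were on the higher list of both dendritic classes, which were read from the same pair of libraries and are therefore not independent. Over all genes, 3.06% were called higher in type 1 and 2.29% in type 2 cells, and the share called in both was not counted. With cells assigned from markers alone, all of these members lost their type 2 call and Pmvk also its type 1 call. The promoters of these members are shown because SREBP is known to bind near the start of such genes. It binds there together with NF-Y, which binds CCAAT, and Sp1, which binds GC boxes. RefSeq promoters (GRCm38.p6) were found for 24 of the 31 members and 15 of the 18 sterol enzymes; Fdps was not among them. Capitals mark CCAAT on either strand (read ATTGG on the other) and TCACNCCA, a loose form of the sterol regulatory element. Hmgcs1 (chr13:119690101-119690350, plus strand) and Pmvk (chr3:89454291-89454540, plus strand) are given for 250 bases before the start. For Idi1 (chr13:8885576-8885605, plus strand) and Msmo1 (chr8:64733616-64733645, minus strand), where annotated exons reach into that window, only 30 bases around the CCAAT nearest to the start are given.
Hmgcs1: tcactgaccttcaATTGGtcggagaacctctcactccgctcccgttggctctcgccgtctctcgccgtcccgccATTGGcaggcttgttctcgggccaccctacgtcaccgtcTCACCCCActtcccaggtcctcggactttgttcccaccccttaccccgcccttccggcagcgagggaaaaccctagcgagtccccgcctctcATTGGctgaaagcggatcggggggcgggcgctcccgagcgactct
Pmvk: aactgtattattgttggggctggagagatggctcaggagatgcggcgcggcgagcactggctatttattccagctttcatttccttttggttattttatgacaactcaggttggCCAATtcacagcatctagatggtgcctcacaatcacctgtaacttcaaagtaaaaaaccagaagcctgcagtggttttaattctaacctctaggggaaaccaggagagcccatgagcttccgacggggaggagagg
Idi1: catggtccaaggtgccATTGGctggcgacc
Msmo1: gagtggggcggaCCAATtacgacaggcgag

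CCAAT stood within 250 bases before the start in 14 of 15 sterol enzymes and in 37.5% of the 27025 genes of the promoter table, counted on both strands. In Hmgcs1 it began 237, 176 and 45 bases before the start, in Idi1 45 and 14, and in Msmo1 160, 96 and 55. Pmvk held a single CCAAT 136 bases before the start. The GC box GGGCGG stood in 14 of 15 sterol enzymes and in 35.4% of genes. In contrast 2 of 6 fatty acid enzymes held each of these motifs. TCACNCCA was in 3 of 24 members, Hmgcs1 (137 bases before the start), Msmo1 (177 bases) and Srebf2, and in 4.20% of genes. The exact form of the sterol regulatory element was also searched, and was in 0 of 24 members and in 0.0814% of genes. A match is a description of the letters and no more. ATTGG can share its final letters with GGGCGG, and such letters were counted for both motifs. Among members called higher in a dendritic class, Fdps lies at chr3:89093588-89101959 (minus strand) and Idi1 at chr13:8885501-8892451 (plus strand) in the GENCODE annotation of mm10, both protein-coding.

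Related genes of the same pathways gave 9 calls in the dendritic classes. By the same rule 3.06% of all genes were called higher and 3.80% lower in type 1 cells. In type 2 cells the shares were 2.29% and 6.13%. The list of other synthesis and SREBP genes (20 genes, such as Scap, which escorts SREBP, and Tecr, of fatty acid elongation) had 13 counted in each dendritic class, with 0 called in type 1 and 1 lower in type 2 cells, the acetyl-CoA synthetase Acss2 (12.4 and 4.52 CPM). Genes of sterol efflux and targets of LXR, the receptor that senses excess sterol, were counted for 5 of 8 in type 1 cells, of which 3 were called lower. These were Apoe, the lipid carrier (49.2 and 14.4 CPM, where the 10 markers of interstitial macrophages, the class highest in Apoe, were at 27.3 and 14.8 CPM), Mylip, which degrades lipoprotein receptors (37.7 and 17.2 CPM), and Abcg1, a sterol exporter (22.6 and 14.4 CPM). In type 2 cells 2 of 6 were called higher, the phospholipid transfer protein Pltp (144 and 290 CPM) and Lpcat3 (16.2 and 28.3 CPM), and 0 lower. Of the sterol uptake, storage and transport genes 1 of 10 was lower in type 1 cells, the lipase Lpl (18.3 and 7.91 CPM), and 0 of 10 in type 2 cells. Of the fatty acid oxidation genes the dehydrogenase Acadl was higher in type 1 cells (56.7 and 92.5 CPM), 1 of 10, and Cpt1a, which brings fatty acids into mitochondria, was lower in type 2 cells (50.8 and 26.0 CPM), 1 of 10.

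B cells had the highest level of the fatty acid branch, mostly through Scd1, which makes monounsaturated fatty acids. Scd1 stood at 800 CPM in 1919 control B cells and 535 CPM in 1688 exposed B cells, 59.4 and 99.8 times the median of the 12 classes. It made up 79.9% and 78.0% of the summed fatty acid enzymes of B cells, which stood at 1001 CPM [978 to 1025] and 686 CPM [667 to 706]. The log2 ratio of Scd1 was -0.58 [-0.64 to -0.52], just inside the 1.5-fold limit, so Scd1 was not called in B cells. All genes of the class had a median of -0.15, and relative to it the difference is smaller. The level was lower in each of the 3 clusters named B cells. It was 856 and 579 CPM in the largest, and 894 and 568 CPM in the cluster led by Fam129c and Cplx2. In the cluster led by Igha, the constant region of IgA, it was 383 and 284 CPM. Of the control B cells 85.9%, and of the exposed ones 81.3%, had a UMI of Scd1, or 53.6% [51.3 to 55.9] and 43.0% [40.7 to 45.5] after thinning to 1000 UMIs, which left out 35 and 6 cells. Neutrophils had 2.14% and 0.612% unthinned and 1.10% and 0.194% thinned, with median depths of 2676 and 2892 UMIs against 3270 and 3598 in B cells. Scd1 lies at chr19:44394455-44407879 (minus strand), beside Scd2 at chr19:44293674-44306864 (plus strand).

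Members called lower in B cells were 3 of 28, where 4.95% of the 10344 genes were called lower and 0.870% higher. They were Scd2 (52.6 and 34.8 CPM), Idi1 (14.8 and 9.37 CPM) and Lss (4.06 and 1.61 CPM, on 29 and 11 UMIs). Scd2 was at 106 CPM [88.4 to 126] and 74.9 CPM [56.9 to 96.8] in the cluster led by Fam129c. Besides Scd1, the members with the most UMIs that were not called were Srebf2 (132 and 113 CPM) and Acly (66.4 and 51.7 CPM).

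Outside B cells Scd1 was far lower, between 1.61 and 20.1 CPM in the control and between 0.784 and 11.3 CPM in the exposed library. It was lower in the exposed library in 10 of the 11 other classes and called lower in 8. In T cells 53 control and 6 exposed UMIs gave 7.60 and 0.784 CPM, in neutrophils 73 and 16 UMIs gave 9.64 and 2.00 CPM, and in NK cells 45 and 7 UMIs gave 13.8 and 2.35 CPM. Classical monocytes stood at 5.42 and 1.25 CPM, nonclassical monocytes at 10.0 and 3.53 CPM, alveolar macrophages at 19.8 and 10.5 CPM and proliferating cells at 16.4 and 5.99 CPM. Group 2 innate lymphoid cells were the exception, with 1 control and 3 exposed UMIs. RNA of B cells was lower along with it. The B cell marker Cd79a was at 3291 and 3414 CPM in B cells, and its median over the other 11 classes was 25.8 CPM (control) and 6.39 CPM (exposed), with a lower value in 10 of the 11. The 10 B cell markers summed to between 129 and 880 CPM in these classes of the control and between 31.2 and 548 CPM in the exposed library, with at most 1 and 2 of the 10 at 0. For each 100 UMIs of Cd79a there were 24.3 and 15.7 UMIs of Scd1 in B cells, 33.3 and 18.2 in T cells, and 42.0 and 30.2 in neutrophils. The ratio was higher in the exposed library in 6 of the 11 other classes, among them alveolar macrophages with 74.3 and 269, and its median over the 11 was 35.9 and 37.5. In exposed type 2 dendritic cells it reached 433, on 3 UMIs of Cd79a. The part of B cell RNA in the lower Scd1 of other classes was not tested. The 8 markers of lung epithelium, where Scd1 also works in making surfactant, summed to between 6.73 and 266 CPM in control and between 1.01 and 173 CPM in exposed classes, with up to 5 and 7 of the 8 at 0, and were higher in the exposed library in 4 of the 11 classes. Their part was not tested either.

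**Figure D4:**
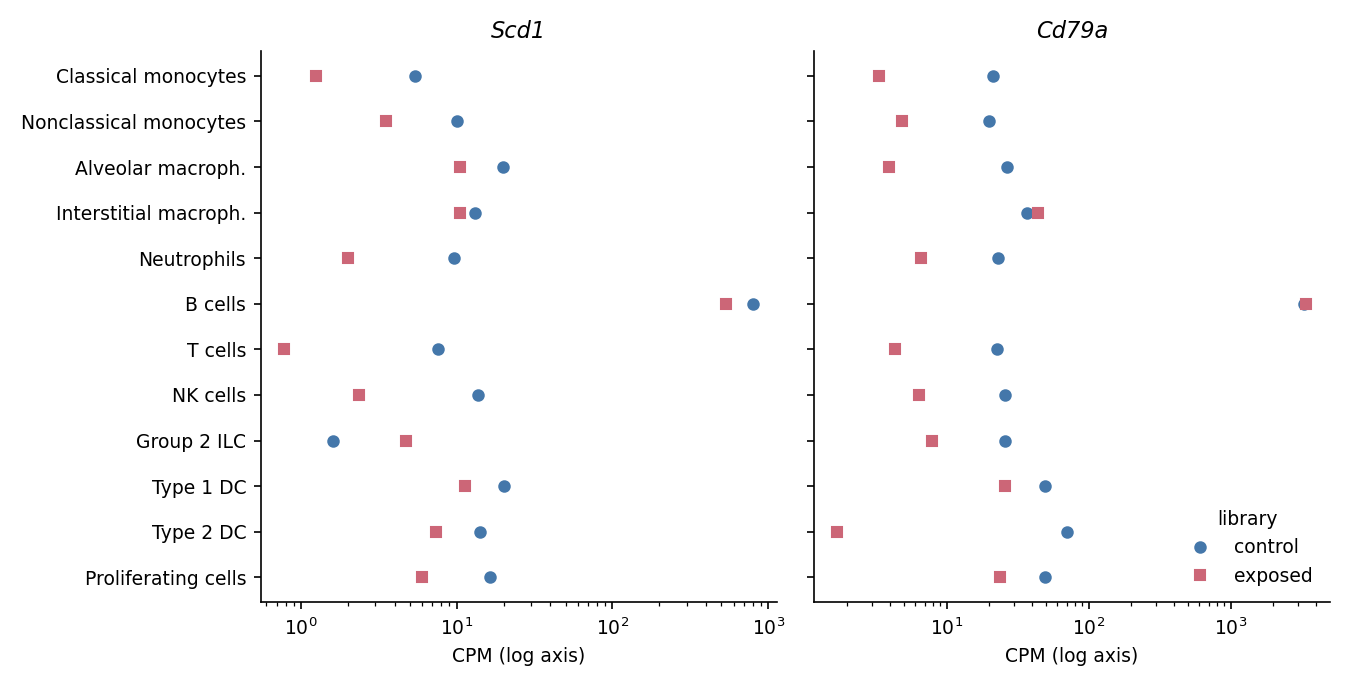
CPM of Scd1 (left) and of the B cell marker Cd79a (right) by class in the control and exposed libraries, on log axes. Outside B cells, Scd1 is lower in the exposed library in 10 of 11 classes and Cd79a also in 10 of 11.

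T cells differed in Elovl6, the elongase that turns palmitate into stearate. Its level was 14.8 CPM on 103 UMIs in 1223 control cells and 42.9 CPM on 328 UMIs in 1225 exposed cells, 2.90-fold [2.32 to 3.66], and by the near bound of its interval it ranked 4 of 10345 genes. The share of T cells with a UMI was 6.46% and 17.4%, against 0.145% and 0.077% of neutrophils, at median depths of 5374 and 6004 UMIs in T cells and 2676 and 2892 UMIs in neutrophils. After thinning to 1000 UMIs, which left 1220 exposed T cells, it was 1.65% [1.01 to 2.54] and 3.69% [2.70 to 4.90] in T cells. In the cluster led by Ly6c1, Igfbp4 and Cd4 the intervals were 10.5 to 20.8 CPM in 466 control cells and 50.3 to 68.1 CPM in 535 exposed cells. In the cluster led by Cd8b1 and Cd8a the levels were 13.1 CPM [9.45 to 17.7] and 38.7 CPM [32.4 to 45.8]. In the cluster led by Foxp3, which marks regulatory T cells, they were 18.2 CPM [11.8 to 26.9] and 15.7 CPM [9.47 to 24.6], and the intervals overlapped; the difference between clusters was not tested. NK cells had 28.8 and 32.3 CPM. The 9 NK cell markers summed to 212 and 153 CPM in T cells, with 0 of 9 at 0, and the part of NK cell RNA was not tested. Elovl6 lies at chr3:129532355-129638495 (plus strand). Of the 30 members counted in T cells 1 was called higher, Elovl6, and 1 lower, Scd1, where 1.29% of the 10345 genes were called higher and 4.08% lower. Elovl5 (107 and 76.1 CPM), Srebf2 (84.0 and 73.1 CPM) and Acly (57.4 and 51.0 CPM) were not called. The sterol sum was 206 and 203 CPM.

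**Figure D5:**
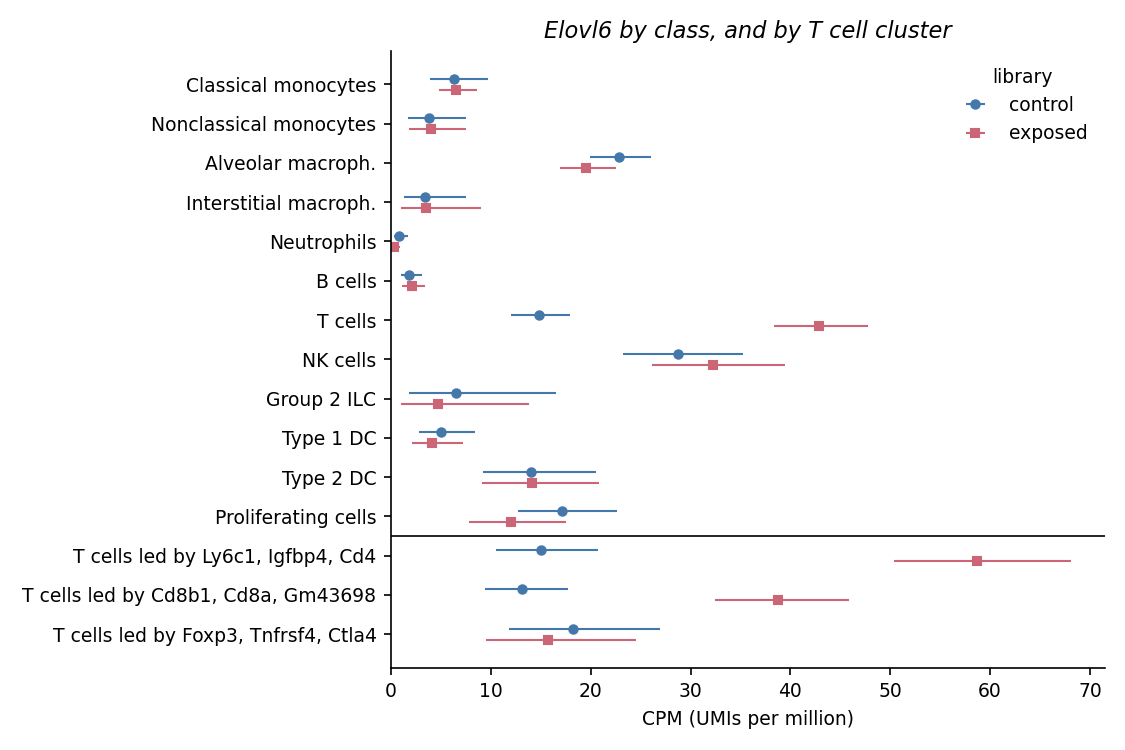
Elovl6 CPM in the 12 classes (above the line) and in the 3 T cell clusters (below) of the control and exposed libraries, with 95% counting intervals. The exposed T cells, at 42.9 CPM, stand apart from the control T cells, but their interval overlaps that of exposed NK cells (32.3 CPM). The intervals of the cluster led by Foxp3 overlap.

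Interstitial macrophages, which lie in the tissue around airways and vessels, had less of the fatty acid enzymes in the exposed library. Their sum was 220 CPM [199 to 244] over 136 control cells and 138 CPM [117 to 161] over 111 exposed cells, a log2 ratio of -0.68 [-0.96 to -0.41], and the 3 synthesis genes alone went from 107 to 56.4 CPM. Of 22 members counted 2 were called lower and 0 higher, where 5.43% of the 8256 genes were called lower and 2.22% higher. They were Acly, 80.3 and 45.0 CPM, and Acaca, which makes malonyl-CoA, 15.5 and 6.17 CPM on 27 and 7 UMIs. The call of Acly was lost with doublets kept and that of Acaca when cells were taken from markers alone. Markers of some other cells were lower as well. Those of classical monocytes summed to 2022 and 929 CPM (0 of 9 at 0 in either). Those of proliferating cells summed to 265 and 99.6 CPM (0 of 11 at 0) and those of T cells to 222 and 89.9 CPM (0 and 2 of 11 at 0). Markers of B cells were higher (444 and 498 CPM). So were those of alveolar macrophages (1439 and 1540 CPM), nonclassical monocytes (298 and 374 CPM) and type 2 dendritic cells (998 and 1019 CPM). In the 119 control and 99 exposed cells with UMIs of fewer than 3 classical monocyte markers the fatty acid enzyme sum was 184 CPM [162 to 209] and 123 CPM [102 to 148], which no longer reached 1.5-fold. In the 131 and 107 cells with fewer than 3 markers of proliferating cells it was 218 and 134 CPM. The part of T cell RNA was not tested. Ebp (60.8 and 73.2 CPM), Srebf2 (65.4 and 55.6 CPM) and Fads1 (50.5 and 37.0 CPM) were not called. The sterol sum was 255 and 243 CPM, and 10 cells held 46.1% of its UMIs in the control and 29.3% in the exposed group. The median log2 ratio of the members was -0.26, against -0.014 for all genes.

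Alveolar macrophages had slightly more of the sterol enzymes, a log2 ratio of 0.19 [0.13 to 0.24], and slightly less of the fatty acid enzymes, 295 and 264 CPM (-0.16 [-0.23 to -0.08]). Of 30 members 1 was called higher, Lss (3.26 and 5.62 CPM), and 1 lower, Scd1, where 1.13% of the 11012 genes were called higher and 5.05% lower. The median of the members was 0.17, against -0.053 for all genes. Acly was at 114 and 104 CPM, Ebp at 70.7 and 84.0 CPM and Hmgcs1 at 68.4 and 82.5 CPM. By cluster, the sterol enzyme sum was 531 and 583 CPM where Car4 and Slc7a2 led, and 366 and 443 CPM where Mmp12, a macrophage elastase, led.

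In classical monocytes, which enter tissue from blood, 2 of 27 members were called higher and 1 lower, where 5.00% of the 9391 genes were called higher and 6.36% lower. Fdps was at 16.0 and 28.8 CPM and Fasn at 3.31 and 6.64 CPM. Ebp (72.3 and 96.2 CPM), Acly (79.3 and 57.6 CPM) and Elovl5 (57.3 and 59.6 CPM) were not called, and the sterol sum was 297 and 305 CPM. UMIs of Lrg1, Saa3 or Prtn3, acute-phase and granule genes that were chosen with their values known, were in 28 of 371 control and 330 of 575 exposed cells. In the cells without them Fdps was at 15.2 CPM [11.1 to 20.2] and 35.8 CPM [28.7 to 44.2], and in the cells with them at 24.8 CPM [9.96 to 51.0] and 25.2 CPM [20.9 to 30.1]. In nonclassical monocytes, which patrol vessels, 3 of 24 members were called lower and 0 higher, where 3.79% of the 8174 genes were called lower and 2.54% higher. Besides Scd1 they were Insig1 (73.0 and 43.2 CPM) and Stard4 (24.8 and 15.4 CPM). Neutrophil markers were abundant in the class: the 9 of them summed to 31983 and 31795 CPM (0 of 9 at 0), against 798 and 1085 CPM in classical monocytes. Most of that sum was S100a8 (12980 and 11925 CPM) and S100a9 (16339 and 16676.5 CPM). The next highest marker, Retnlg, was at 995 and 1673 CPM. In the 143 control and 109 exposed cells with UMIs of fewer than 3 of the 9 neutrophil markers Insig1 was at 73.3 CPM [53.8 to 97.4] and 60.8 CPM [42.3 to 84.5]. Stard4 was at 32.7 and 22.6 CPM in these cells, with overlapping intervals for both genes. The 4 sensing and carriage genes summed to 219 and 166 CPM in the whole class, a log2 ratio of -0.40 [-0.60 to -0.20] that was not called. Insig1 was at 95.0 and 47.8 CPM in the cluster with the higher sterol enzyme sum (441 and 401 CPM) and at 55.2 and 38.2 CPM in the other. Srebf2 (107 and 89.5 CPM), Elovl5 (95.9 and 80.6 CPM) and Acly (63.5 and 67.4 CPM) were not called.

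Neutrophils had the lowest level of most members, and 1 of 17 counted was called, Scd1, where 2.66% of the 8694 genes were called higher and 6.77% lower. Their sterol sum rested on few genes: Pmvk gave 33.3% of it in the control, with 49.2 CPM there and 48.7 CPM in the exposed library, and Sc5d 33.9% in the exposed library. Sc5d was at 38.9 and 58.4 CPM, a log2 ratio of 0.58 [0.37 to 0.80], just under the limit. In the cluster led by interferon-induced genes (Ifit3b, Ifit1 and Rsad2) Sc5d was at 21.6 CPM [9.33 to 42.6] and 69.0 CPM [52.0 to 89.9]. Acly was at 24.2 and 20.8 CPM.

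In NK cells 1 of 25 members was called higher, Pmvk (6.73 and 12.1 CPM), and 1 lower, Scd1, where 1.40% of the 9318 genes were called higher and 2.81% lower. Scd2 (107 and 87.4 CPM), Acly (108 and 85.8 CPM) and Elovl5 (67.0 and 49.4 CPM) were not called. Group 2 innate lymphoid cells, which make type 2 cytokines, had 12 members counted. Of these 2 were called higher and 1 lower, where 3.15% of the 6061 genes were called higher and 3.66% lower. The regulators went apart in them, with Srebf1 at 12.9 and 31.6 CPM (8 and 20 UMIs) and Srebf2 at 100.1 and 61.7 CPM, and Sc5d was at 27.4 and 60.1 CPM. All 3 calls were lost when doublets were kept. The 11 markers of proliferating cells summed to 9.68 CPM in the control (6 of 11 at 0) and to 294 CPM in the exposed cells (0 of 11 at 0). Without the 5 exposed cells that had UMIs of at least 3 of these markers, Srebf1 was at 28.7 CPM, Srebf2 at 62.7 CPM and Sc5d at 64.5 CPM in exposed cells. Elovl5 (187 and 134 CPM), Acly (83.9 and 75.9 CPM) and Ebp (53.3 and 55.3 CPM) were not called. In proliferating cells 2 of 29 were called lower and 0 higher, where 4.52% of the 9884 genes were called lower and 3.05% higher. Besides Scd1 this was Scd2, with 143 control and 64 exposed UMIs or 0.59 of the control level [0.43 to 0.80]. The make-up of this class differed between the libraries, with T cell markers at 1459 and 751 CPM (0 of 11 at 0), NK cell markers at 385 and 800 CPM (0 of 9 at 0) and alveolar macrophage markers at 2281 and 3061 CPM (0 of 11 at 0), and its part was not tested. Srebf2 (91.3 and 86.6 CPM), Ebp (74.1 and 87.5 CPM) and Acly (76.9 and 76.5 CPM) were not called.

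Over all 12 classes 2.32% of the 475 pairs of related gene and class were called higher and 4.63% lower, which is about the share over all genes (2.32% and 4.80%). There were 1 higher and 4 lower among 151 pairs for the other synthesis and SREBP genes. The counts were 5 and 6 of 84 for LXR targets and efflux, 2 and 6 of 114 for uptake, storage and transport, and 3 and 6 of 126 for fatty acid oxidation. Outside dendritic cells the synthesis calls were Lpin1, a phosphatidate phosphatase, lower in classical monocytes (17.2 and 10.8 CPM), Acss2 lower in alveolar macrophages (3.77 and 2.11 CPM), Scap lower in NK cells (21.4 and 14.1 CPM) and the dehydratase Hacd2 higher in proliferating cells (26.2 and 41.9 CPM). Among LXR targets the sterol exporter Abca1 was higher in classical monocytes (7.83 and 13.6 CPM) and lower in neutrophils (19.3 and 10.8 CPM). Lpcat3 was higher in classical monocytes (8.44 and 20.6 CPM), Mylip lower in neutrophils (51.0 and 32.4 CPM), and Apoe higher in proliferating cells (32.5 and 140.5 CPM) and lower in group 2 innate lymphoid cells (43.6 and 9.49 CPM). Apoe ranged in the control from 17.4 CPM in NK cells to 12740 CPM in interstitial macrophages. The 10 markers of interstitial macrophages were at 384 and 111 CPM in group 2 innate lymphoid cells (3 and 6 of 10 at 0), in type 1 dendritic cells at the levels above (2 and 1 at 0), and at 226 and 275 CPM in proliferating cells (2 and 0 at 0), the same direction as Apoe in each, and their part was not tested. Among uptake and storage genes the lipid receptor Cd36 was lower in nonclassical monocytes (481 and 318 CPM) and T cells, Lpl higher in nonclassical monocytes (11.5 and 22.0 CPM), the receptor Scarb1 lower in B cells (7.55 and 3.81 CPM), the oxysterol binder Osbp lower in classical monocytes (27.1 and 17.9 CPM), Stard3 higher in NK cells (10.1 and 17.2 CPM) and the lysosomal lipase Lipa lower in group 2 innate lymphoid cells (33.9 and 12.7 CPM). The genes with the most UMIs of their lists had their highest control levels as follows. Tecr stood at 132 and 171 CPM in group 2 innate lymphoid cells and Lpin1 at 319 and 253 CPM in alveolar macrophages. Alveolar macrophages also held Abcg1 at 1293 and 1274 CPM, Lpl at 3001 and 3153 CPM, and the oxidation genes Etfb (256 and 287 CPM) and Hadhb (153 and 144 CPM), none of them called there. The lysosomal sterol carrier Npc2 was highest in classical monocytes, at 1735 and 1469 CPM. Among oxidation genes Acadl was higher in classical (32.8 and 51.1 CPM) and nonclassical monocytes (24.3 and 38.3 CPM). Cpt1a was lower in nonclassical monocytes (56.8 and 37.4 CPM), Acadm in interstitial macrophages (60.2 and 37.9 CPM), Ppard in B cells (9.93 and 6.59 CPM) and Cpt2 in T cells (2.44 and 0.915 CPM).

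Many members overlap other annotated genes. Tm7sf2 shares its strand with Vps51, while Fdft1 and Ctsb, Cyp51 and Akap9, and Srebf1 and Rai1 lie on opposite strands. Genes with Gm names overlap Fdps (Gm43738 and Gm22935), Elovl6 (Gm43072), Srebf2 (Gm49502) and Acaca (Gm37391) on the same strand. On the opposite strand Gm48342 overlaps Hmgcs1 and Gm48574 overlaps Idi1, among others. Acat2 has a close copy, Acat3. How reads were split between these genes is not given in the sources used here, so their levels are less certain.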

How the data were processed

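The deposited tables hold UMI counts per gene and cell barcode as whole numbers. The authors used Cell Ranger (3.1.3 per the submitters' processing notes, 3.1.0 per the file headers) and the build mm10. Barcodes with at least 500 UMIs, 200 genes and at most 10% mitochondrial UMIs were kept, and 751 control and 706 exposed cells that scored highest against simulated doublets were removed. Counts scaled to 10000 per cell over 2000 variable genes, without the 31 members, gave 30 principal components, 20 neighbours and Leiden clusters at resolution 1. A cluster was named from at least 3 markers among its top 50 genes, where no other type had more markers among its top 10. Each cell had to carry UMIs of at least 2 markers of its class. Unnamed clusters (323 control and 304 exposed cells) were left out. Among them was a cluster led by Egr3, Myc and Irf4 (79 and 109 cells) with 6 B cell markers in its top 50. UMIs were then summed by class and library. Ratios have 0.5 added to each count, folds do not, and intervals are exact (Poisson for levels, conditional binomial for ratios). No significance test was possible, so none was run. All 31 members were named with their leading class; in each class the called members and the 3 others with the most UMIs were named, and of related lists the called genes and the 2 with the most UMIs. Of the called genes of the related lists, 1 is not reported here. Members, lists and markers were chosen with earlier results of these data known. PCR copies share a UMI, and counting intervals cover neither cell sorting nor animals. The alternatives changed cell filters, doublets, clusters, marker rules, scaling, count minimum and fold. Python 3.11.15, numpy 2.4.6, scipy 1.17.1, scikit-learn 1.9.0, leidenalg 0.10.2, igraph 0.11.9 and matplotlib 3.10.9 were used. The ratios, their intervals and the calls were tested on simulated class sums with counting error only. Cell filters, doublet removal, clusters and class names were not part of that test.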

Additional observations from a re-analysis of the deposited data

Results flagged for a closer look

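A pair of members was called in opposite directions in different classes of the same libraries. Idi1 had a log2 ratio of 1.31 in type 1 dendritic cells and -0.66 in B cells, a gap of 1.96, and its lower call in B cells was lost under median ratio scaling. Lss had a log2 ratio of 0.77 in alveolar macrophages and -1.29 in B cells, a gap of 2.07, on 29 and 11 UMIs in B cells. With 1 library on each side, these differences between classes were not tested.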

How the results depend on the processing

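Each group held 1 library, so no replicate could be left out. No paired analysis was possible because each group held 1 library. Values here are log2 ratios, exposed over control. For the sterol enzymes 134 alternative values stayed within the counting interval of the reported one, 13 moved outside it and 1 reversed. For the fatty acid enzymes these counts were 137, 10 and 1. Reversed means a changed sign where the interval of the reported value excluded 0. The alternatives reuse cells of the same libraries and are not independent. The sum of type 1 dendritic cells lay between 0.44 and 0.90, with 0.51 under the stricter cell filter and 0.44 at clustering resolution 1.6. That of type 2 dendritic cells lay between 0.059 and 0.77, with 0.059 when cells were taken from markers alone. It was 0.53 without cells carrying at least 2 plasmacytoid markers, an alternative chosen after seeing the data. Markers alone also gave 0.15 for sterol enzymes in classical monocytes and 0.49 in proliferating cells, and -0.15 for fatty acid enzymes in type 2 dendritic cells. Thinning cells to 1000 UMIs gave, for sterol enzymes, 0.079 in alveolar macrophages, 0.36 in neutrophils, -0.24 in B cells and -0.50 in proliferating cells. For fatty acid enzymes it gave -0.63 in classical monocytes, -0.49 in B cells, -0.32 in T cells, -0.27 in type 2 dendritic cells and 0.16 in proliferating cells, a change of sign. Without cells carrying at least 3 neutrophil markers, also chosen after seeing the data, the sterol enzymes were at -0.12 in nonclassical monocytes. Weighing each cell the same gave 0.16 for sterol enzymes in interstitial macrophages. Median ratio scaling shifts all genes by -0.15 in B cells and -0.11 in T cells. It turned the sterol sum of B cells to 0.036 and that of T cells to 0.095, and gave -0.40 and -0.014 for their fatty acid enzymes. Without mitochondrial and ribosomal genes in the total the fatty acid enzymes of B cells were at -0.48. In nonclassical monocytes these enzymes were at -0.43 with no cell filter and at -0.32 with doublets kept. The cause of these shifts was not tested. At a limit of 2-fold 14 pairs of gene and class were higher and 8 lower, against 23 and 18. The share of all genes called at 2-fold was not counted, so these counts have no background. The calls that held under all 7 alternatives for calls were Fdps, Idi1 and Msmo1 in type 1 dendritic cells, Sqle in type 2 dendritic cells, Elovl6 in T cells, Fasn in classical monocytes, and Scd1 in neutrophils, T cells and NK cells. How many calls of all genes would hold was not counted. Fasn ranked only 1154 of 9391 genes in classical monocytes by the near bound of its interval. The 7 alternatives changed the count minimum, the fold, doublets, marker rules and scaling. Calls were not remade under the stricter cell filter or another clustering resolution. Genes under 20 UMIs in a class could not be judged at this depth, and class totals ran from 619516 to 9972533 UMIs.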
